A study of Mus musculus with 2 samples.

Results

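The genes described here are 37 mouse genes of white fat and of fat synthesis and breakdown, among 55536 genes of the GENCODE M21 annotation. They were listed by symbol, some of them for their difference between the libraries described here, so that difference is reported as a description and without a test. Each symbol matched 1 annotated gene. RNA of whole adrenal gland was sequenced in 1 group of 2 adult male B6CASTF1/J mice, the F1 hybrid between C57BL/6J and CAST/EiJ parents, aged 8 to 10 months. The labels name no allele and no treatment. Replicate 2 was animal 4 of the labels' numbering and replicate 1 was animal 2. Each library was made from 300 ng of RNA with ERCC spike-ins, synthetic RNAs added in known amounts. How much of the fat around the gland was taken with it is not given in the sources used here.

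White adipocytes store triglyceride in 1 large droplet coated with perilipins. They take up fatty acids that lipoprotein lipase frees in capillaries, make more from glucose carbon, and join them to glycerol phosphate. Lipases release the fatty acids again when catecholamines act on beta-adrenergic receptors. Adipocytes also secrete hormones such as adiponectin and leptin, and the adrenal gland of a mouse lies embedded in fat. The steroid-producing cells of the cortex use several of the same enzymes, since they hold droplets of cholesterol ester. The members were therefore divided by textbook knowledge into 15 fat-restricted genes and 22 others, called shared with gland cells. The line is not sharp, since some genes counted as shared, such as Pnpla3 and Rbp4, are described below without a use in gland cells. Aoc3, counted as fat-restricted, is described below as an enzyme of vessel walls too.

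Expected counts on annotated genes (estimated read counts that need not be whole) summed to 33987434 in replicate 2 and 29994901 in replicate 1. Genes at 1 TPM or more (a level scaled to the library and corrected for transcript length) numbered 14731 in replicate 2 and 14544 in replicate 1. Defining markers of the adrenal gland were abundant in both libraries. The 8 cortex markers summed to 18361 TPM in replicate 2 and 21662 TPM in replicate 1, and the 8 chromaffin cell markers to 2251 TPM in replicate 2 and 3152 TPM in replicate 1. Each library is 1 animal, so no difference below has a replicate check, and whether groups of animals would overlap cannot be judged. In bulk RNA, a difference in the number of cells of a type and a difference in RNA per cell cannot be told apart.

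All 37 members were measured in both libraries, with at least 291 counts in replicate 2 and at least 61 counts in replicate 1. Of these, 33 were at least 2-fold higher in replicate 2, after scaling of the counts by the trimmed mean of M-values (TMM). Over all 18121 nuclear genes with a mean scaled count of at least 10, 5.18% passed that mark, as did 4.7% of the protein-coding ones. None of the members was at least 2-fold lower, against 4.2% of all genes and 1.46% of the protein-coding ones. At least 4-fold higher were 24 members, against 1.58% of all genes. The median log2 ratio of the members was 2.39, beside 0.01 for all genes. The median level of the members was 83.9 TPM in replicate 2 and 16.1 TPM in replicate 1. Because the choice of members used this difference, nothing further is read from these counts.

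The members around and below the 2-fold mark had at least 618 counts (Dgat1 in replicate 1) in each library. Mgll at 2.06-fold and Lpin1 at 2.13-fold lay just above 2-fold, and Dgat1 at 1.59-fold lay just below it. Me1, Acly and Elovl6 were lower in replicate 2, at 0.837, 0.726 and 0.682 times replicate 1, and they stayed lower under every scaling and with both quantifiers. All 4 genes under 2-fold belong to the shared class. The 95% intervals of the fold, which cover counting error only, lay wholly above 2 for 32 members and wholly below 1 for these 3.

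**Figure D1:**
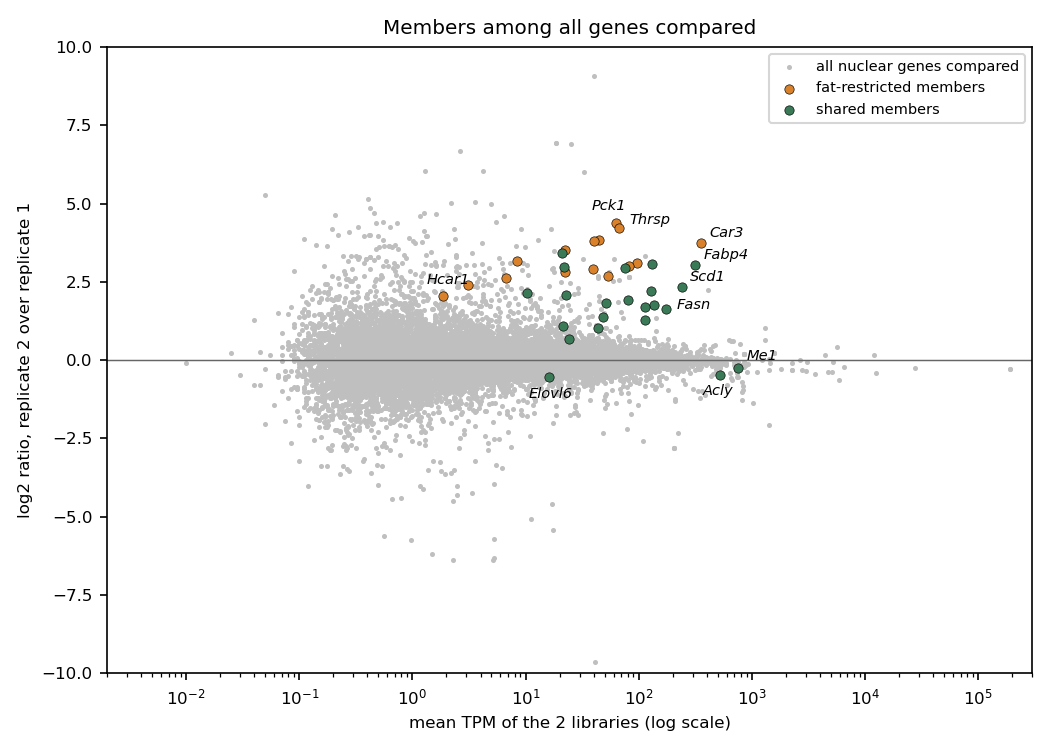
Log2 ratio of scaled counts, replicate 2 over replicate 1, against the mean TPM of both libraries on a log scale, for the 18121 nuclear genes compared (grey) and for the 15 fat-restricted (orange) and 22 shared (green) members. The members stand above the grey band except for Me1, Acly and Elovl6, and Dgat1 lies close to it.

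The classes were drawn up with these differences known, so their values are descriptions. Every one of the 15 fat-restricted members passed 4-fold in replicate 2 over replicate 1, with a median fold of 8.56 and a range from 4.10 for Hcar1 to 20.99 for Pck1. Of the 22 shared members, 9 passed 4-fold and 18 passed 2-fold, and their median fold was 3.46. Over all genes compared, 1.58% passed 4-fold and 5.18% passed 2-fold. Fat-restricted members had a median level of 75.0 TPM in replicate 2 and 5.36 TPM in replicate 1. Shared members had a median level of 133 TPM in replicate 2 and 27.4 TPM in replicate 1. By median, the shared genes stood higher than the fat-restricted genes in both libraries.

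Together the members took 1.4996% of all nuclear protein-coding TPM in replicate 2 and 0.612% in replicate 1. The fat-restricted members took 0.441% in replicate 2 and 0.0378% in replicate 1. Acly and Me1 alone took 0.302% in replicate 2 and 0.381% in replicate 1. In replicate 1 these 2 enzymes thus took more than all other members together. The other 20 shared genes took 0.756% in replicate 2 and 0.193% in replicate 1.

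**Figure D2:**
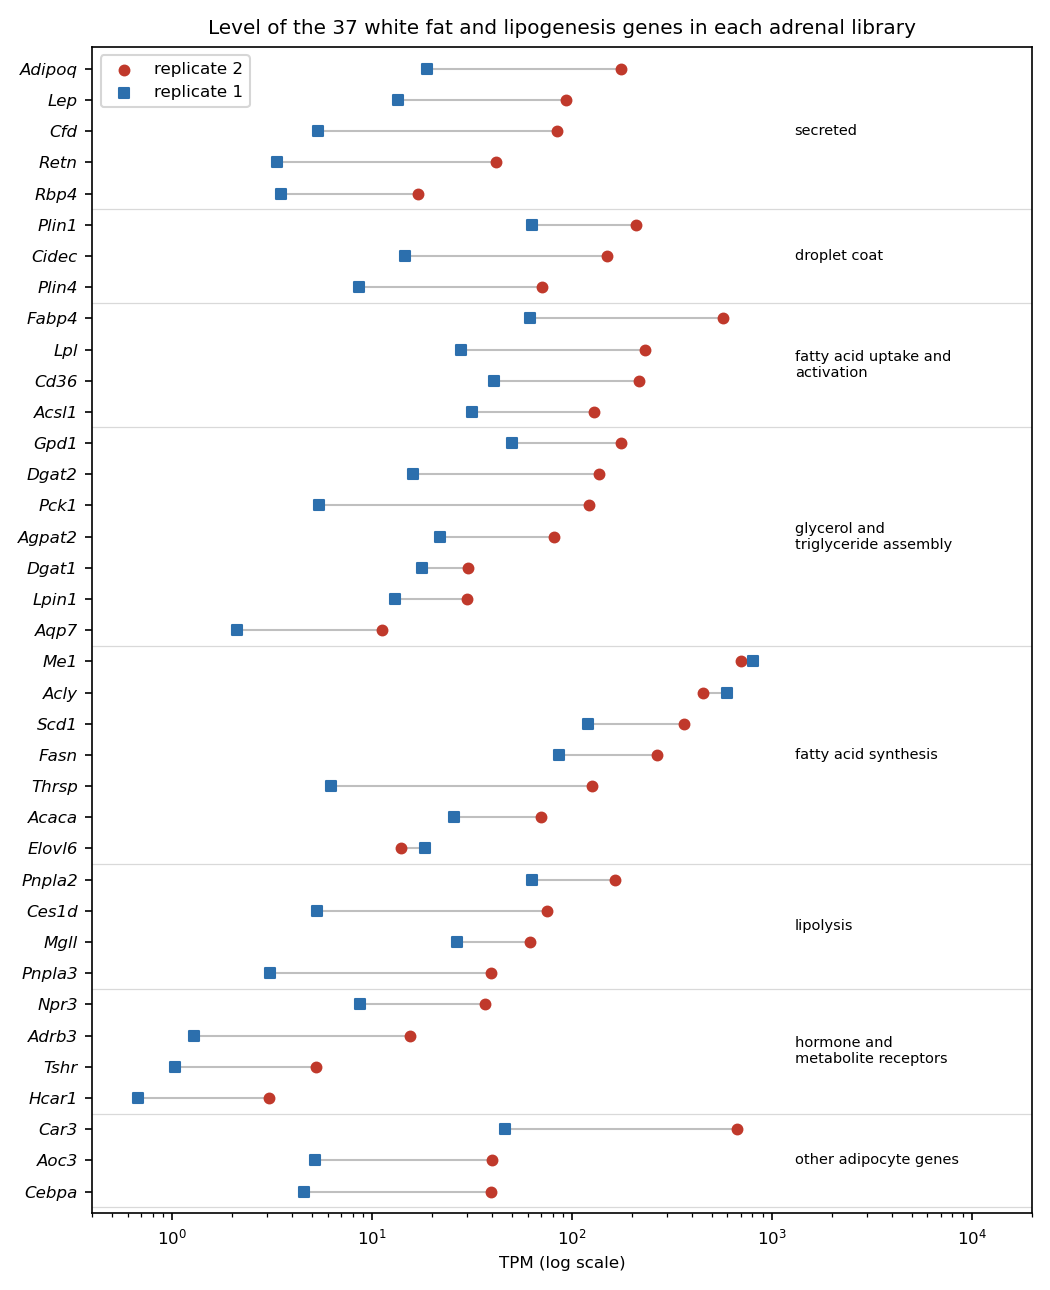
TPM of each member on a log scale in replicate 2 (red circles) and replicate 1 (blue squares), grouped by role, 1 animal per symbol. Red lies right of blue for 34 members, and the order is turned round for Me1, Acly and Elovl6.

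Sequence upstream of the members was searched for short motifs known from lipid and adipocyte genes. RefSeq windows of 250 bases upstream of the transcription start were at hand for 26 of the 37 members (build GRCm38.p6). Each was searched on both strands for 6 motifs, with 1 window per member, that nearest the start of its leading GENCODE transcript in replicate 2. All windows of that length, 32851 in number and not cut to 1 per gene, gave the background. The windows below were chosen after the matches were seen. They show the 3 members with a C/EBP motif (TTGCNNAA, the letters bound by the adipocyte factor encoded by Cebpa), 1 member with a very large difference and 1 that was lower in replicate 2. Capitals mark motif letters, and each run reads 5′ to 3′ on the gene's strand.
Lep: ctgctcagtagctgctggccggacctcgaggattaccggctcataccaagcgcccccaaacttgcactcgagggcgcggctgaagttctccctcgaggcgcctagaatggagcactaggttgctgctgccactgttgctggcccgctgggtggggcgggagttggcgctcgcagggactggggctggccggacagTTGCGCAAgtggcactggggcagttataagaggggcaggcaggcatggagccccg
Plin1: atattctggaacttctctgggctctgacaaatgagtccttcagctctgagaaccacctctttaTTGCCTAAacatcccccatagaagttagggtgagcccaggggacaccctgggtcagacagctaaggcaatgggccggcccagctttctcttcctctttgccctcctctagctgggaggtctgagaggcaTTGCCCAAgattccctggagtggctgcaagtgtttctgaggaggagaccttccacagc
Rbp4: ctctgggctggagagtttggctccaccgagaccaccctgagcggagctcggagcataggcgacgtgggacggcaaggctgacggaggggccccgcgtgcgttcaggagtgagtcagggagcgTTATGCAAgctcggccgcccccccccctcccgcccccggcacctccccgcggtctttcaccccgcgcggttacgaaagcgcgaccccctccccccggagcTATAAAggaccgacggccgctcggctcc
Thrsp: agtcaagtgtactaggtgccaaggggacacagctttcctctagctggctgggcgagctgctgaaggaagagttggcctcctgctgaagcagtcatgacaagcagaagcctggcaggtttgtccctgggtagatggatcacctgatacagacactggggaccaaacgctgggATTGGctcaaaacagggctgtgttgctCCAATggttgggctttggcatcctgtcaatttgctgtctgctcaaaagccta
Acly: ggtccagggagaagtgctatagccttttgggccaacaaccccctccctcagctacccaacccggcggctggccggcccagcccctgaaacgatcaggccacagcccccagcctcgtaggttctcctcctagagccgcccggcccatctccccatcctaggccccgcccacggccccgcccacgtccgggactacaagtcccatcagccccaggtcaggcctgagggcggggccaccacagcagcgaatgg
Lep (chr6:29059971-29060220, plus strand) has its C/EBP motif 55 bases upstream of the start, and it matches on both strands. Plin1 (chr7:79732777-79733026, minus strand) has 2 such motifs, 187 and 58 bases upstream. Rbp4 (chr19:38124812-38125061, minus strand) has 1 at 128 bases upstream and a TATA box (TATAAA) at 28 bases upstream. Thrsp (chr7:97417551-97417800, minus strand) has 2 CCAAT boxes (CCAAT), on opposite strands, 79 and 52 bases upstream. Its RefSeq start lies 180 bases from the start of the leading GENCODE transcript, so these distances hold for the RefSeq start. Acly (chr11:100528001-100528250, minus strand) holds none of the 6 motifs.

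The C/EBP motif was in 3 of the 26 members' windows, or 11.5%, and in 9.56% of all windows. CCAAT boxes were in 7 members' windows, or 26.9%, against 33.9% of all windows, and TATA boxes were in 2, or 7.69%, against 12.4%. An E-box (CACGTG) was in 1, that of Mgll, or 3.85%, against 6.02% of all windows. Neither a sterol response element (TCACNCCAC) nor the direct repeat bound by the PPAR factors (AGGNCA repeated after 1 free base) was in a member's window, and 1.05% and 0.338% of all windows hold them. Each share is near its background. A match describes letters only, and its absence says that these letters are not in this window.

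Among the secreted proteins, all 5 genes were higher in replicate 2. Adipoq, which encodes the insulin-sensitising hormone adiponectin (ENSMUSG00000022878.5, mm10 chromosome 16, 23146536 to 23158028, plus strand), stood at 175 TPM in replicate 2 and 18.9 TPM in replicate 1, an 8.56-fold difference with a 95% interval of 7.80 to 9.41. Lep, the gene of the appetite hormone leptin (chromosome 6, 29060220 to 29073877, plus strand), had 93.6 TPM in replicate 2 and 13.5 TPM in replicate 1, or 6.49-fold. Cfd, encoding the complement protease adipsin, had 83.9 TPM in replicate 2 and 5.36 TPM in replicate 1, or 14.4-fold. The hormone genes were thus measured in both libraries, with 494 Adipoq counts in replicate 1. Retn, encoding resistin, reached 41.7 TPM in replicate 2 and 3.37 TPM in replicate 1. Rbp4, the carrier of retinol in plasma, which liver also secretes, had 17.0 TPM in replicate 2 and 3.49 TPM in replicate 1, and its 4.44-fold difference was the smallest of the 5.

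The 3 droplet coat genes were all higher in replicate 2, Plin1 by the least. Plin1 encodes the perilipin that guards the adipocyte droplet and is also made in steroid-producing cells (chromosome 7, 79720218 to 79732903, minus strand). It had 209 TPM in replicate 2 and 63.0 TPM in replicate 1, a 3.37-fold difference with an interval of 3.23 to 3.52. Cidec, which fuses droplets into 1 large droplet, had 150.4 TPM in replicate 2 and 14.7 TPM in replicate 1, or 8.11-fold. Plin4, a coat protein of small new droplets, had 70.9 TPM in replicate 2 and 8.62 TPM in replicate 1, or 7.60-fold. Plin1 was thus the most abundant coat gene in both libraries and the one nearest to equality.

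Replicate 2 held more of all 4 fatty acid uptake and activation genes, by 3.77-fold or more. Fabp4, the fatty acid carrier of adipocytes, macrophages and capillary cells (chromosome 3, 10204088 to 10208576, minus strand), reached 572 TPM in replicate 2 and 62.1 TPM in replicate 1, or 8.23-fold. Lpl, the lipase that frees fatty acids from circulating lipoproteins, had 233 TPM in replicate 2 and 28.0 TPM in replicate 1, or 8.33-fold. Cd36, a fatty acid transporter also made by macrophages and endothelium, had 216 TPM in replicate 2 and 40.9 TPM in replicate 1, or 4.65-fold. Acsl1, which activates fatty acids to acyl-CoA in many tissues, had 129 TPM in replicate 2 and 31.5 TPM in replicate 1. Fabp4 and Lpl, both shared genes, thus had folds close to the 8.56 of Adipoq.

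Glycerol supply and triglyceride assembly genes were all higher in replicate 2, from 1.59-fold to 20.99-fold. Pck1, which makes glycerol phosphate precursors in fat and glucose in liver (chromosome 2, 173153048 to 173159273, plus strand), had 122 TPM in replicate 2 and 5.44 TPM in replicate 1. Its 20.99-fold difference (interval 18.9 to 23.3), from 9130 counts in replicate 2 and 374 counts in replicate 1, was the largest of all members. Gpd1, which turns glycolytic dihydroxyacetone phosphate into glycerol phosphate, had 177 TPM in replicate 2 and 50.1 TPM in replicate 1, or 3.23-fold. Aqp7, the glycerol channel of adipocytes, was sparse at 11.3 TPM in replicate 2 and 2.11 TPM in replicate 1. The acyltransferases then differed from each other. Dgat2, which makes triglyceride from newly formed fatty acids, had 137 TPM in replicate 2 and 16.1 TPM in replicate 1, or 7.73-fold. Dgat1, the second enzyme for the same step and widely expressed, had 30.2 TPM in replicate 2 and 17.8 TPM in replicate 1, or 1.59-fold with an interval of 1.44 to 1.75. The intervals of these 2 genes, which cover counting error only, did not overlap. Agpat2, whose loss causes lipodystrophy, had 81.2 TPM in replicate 2 and 21.9 TPM in replicate 1. Lpin1, a phosphatidate phosphatase, had 30.0 TPM in replicate 2 and 13.1 TPM in replicate 1.

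Fatty acid synthesis divided into 4 members that were higher and 3 that were lower in replicate 2. Acly, which cleaves citrate to give cytosolic acetyl-CoA (chromosome 11, 100476353 to 100528000, minus strand), had 450.5 TPM in replicate 2 and 595 TPM in replicate 1. Me1, the malic enzyme that supplies NADPH (chromosome 9, 86581371 to 86695953, minus strand), had 704 TPM in replicate 2 and 801 TPM in replicate 1. Elovl6, which lengthens palmitate (chromosome 3, 129532355 to 129638495, plus strand), had 14.0 TPM in replicate 2 and 18.4 TPM in replicate 1. Acly and Me1 were thus the most abundant members in replicate 1, with Scd1 next at 119.9 TPM. Cortex cells use acetyl-CoA and NADPH for cholesterol and steroid synthesis as well.

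The other 4 genes of the role were higher in replicate 2. Acaca, which makes malonyl-CoA, had 70.2 TPM in replicate 2 and 25.8 TPM in replicate 1, or 2.62-fold. Fasn, the fatty acid synthase (chromosome 11, 120805846 to 120824547, minus strand), had 266 TPM in replicate 2 and 86.4 TPM in replicate 1, or 3.10-fold with an interval of 3.05 to 3.16. Thrsp, a lipogenic protein of fat, liver and mammary gland (chromosome 7, 97412938 to 97417730, minus strand), had 127 TPM in replicate 2 and 6.24 TPM in replicate 1. Its fold of 18.8 (interval 16.3 to 21.7) was second to Pck1 among the members. Scd1, which places a double bond in fatty acids, had 362 TPM in replicate 2 and 119.9 TPM in replicate 1.

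Lipolysis genes were all higher in replicate 2. Pnpla2, the first lipase of triglyceride, which works in most tissues, had 165 TPM in replicate 2 and 63.0 TPM in replicate 1, or 2.46-fold. Mgll, which takes the last fatty acid off glycerol, had 61.4 TPM in replicate 2 and 26.7 TPM in replicate 1. Ces1d, a carboxylesterase of fat and liver droplets, had 75.0 TPM in replicate 2 and 5.34 TPM in replicate 1, or 14.1-fold. Ces1d is fat-restricted by the division used here, and it stood further from equality than the widely used lipases. Pnpla3, a relative of Pnpla2 expressed in mouse fat and liver and induced by feeding, had 39.3 TPM in replicate 2 and 3.11 TPM in replicate 1, or 10.7-fold.

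The receptors were the least abundant role. Adrb3, the beta-adrenergic receptor that starts lipolysis in rodent fat (chromosome 8, 27225776 to 27250616, minus strand), had 15.6 TPM in replicate 2 and 1.29 TPM in replicate 1, or 9.08-fold with an interval of 7.36 to 11.3. Npr3, which clears natriuretic peptides, had 36.7 TPM in replicate 2 and 8.76 TPM in replicate 1, or 4.21-fold. Tshr, the thyrotropin receptor, had 5.23 TPM in replicate 2 and 1.03 TPM in replicate 1. Hcar1, the lactate receptor that restrains lipolysis, had 3.04 TPM in replicate 2 and 0.68 TPM in replicate 1. It was the only member under 1 TPM in a library, and its fold of 4.10 rests on 291 counts in replicate 2 and 61 counts in replicate 1.

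The remaining members were high in replicate 2 as well. Car3, a carbonic anhydrase abundant in fat and muscle (chromosome 3, 14863512 to 14872523, plus strand), had 670 TPM in replicate 2 and 46.4 TPM in replicate 1, or 13.4-fold. It was the most abundant fat-restricted member in both libraries. Aoc3, an amine oxidase of adipocytes and vessel walls, had 39.6 TPM in replicate 2 and 5.19 TPM in replicate 1. Cebpa, the transcription factor that keeps adipocytes differentiated, had 39.3 TPM in replicate 2 and 4.57 TPM in replicate 1, or 7.91-fold.

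**Figure D3:**
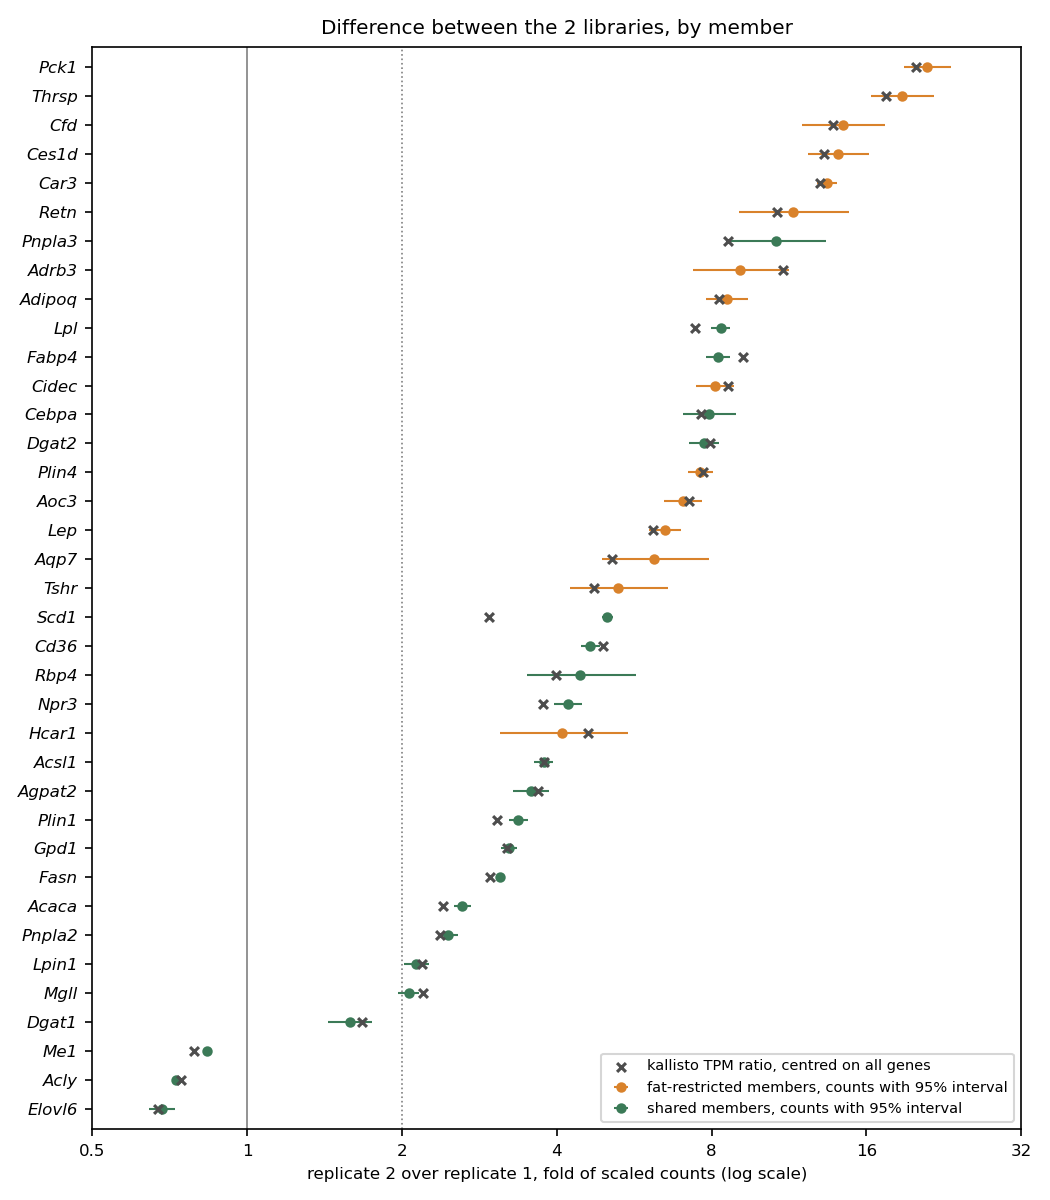
Fold of scaled counts, replicate 2 over replicate 1, on a log scale for each member, with 95% counting intervals, and the kallisto TPM ratio centred on the median of all genes (crosses). The solid line marks equality and the dotted line 2-fold. Fat-restricted members (orange) fill most of the upper places, and shared members (green) all of the places under 4-fold.

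The order of levels within the fat-restricted class was much alike in both glands. Spearman's rho between the libraries was 0.939 across the 15 fat-restricted genes and 0.863 across the 22 shared genes, a description across genes, which are not independent replicates. Relative to Adipoq in the same library, Fabp4 stood at 3.27 times in replicate 2 and 3.29 times in replicate 1. Lpl stood at 1.33 times the Adipoq level in replicate 2 and 1.48 times in replicate 1. Of the other 36 members, 11 kept their level relative to Adipoq within 1.5-fold between libraries, namely Retn, Pnpla3, Adrb3, Lpl, Fabp4, Cidec, Cebpa, Dgat2, Plin4, Aoc3 and Lep.

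Members outside that range lay on both sides. Pck1, Thrsp, Cfd, Ces1d and Car3 stood more than 1.5-fold higher relative to Adipoq in replicate 2. Car3 reached 3.82 times Adipoq in replicate 2 and 2.46 times in replicate 1, and Pck1 reached 0.696 times in replicate 2 and 0.288 times in replicate 1. A further 20 members stood lower relative to Adipoq in replicate 2, of which 3 were fat-restricted, namely Aqp7, Tshr and Hcar1. Plin1 had 1.20 times the Adipoq level in replicate 2 and 3.33 times in replicate 1. Acly was furthest apart, at 2.57 times Adipoq in replicate 2 and 31.5 times in replicate 1, next to Elovl6 and Me1.

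Transcript tables gave a second kind of measurement beside the gene level, the percent of a gene's TPM that each transcript takes. In 25 members at least 2 transcripts reached 10% in a library. The leading transcript was the same in both libraries for 36 members by the RSEM-format table, with Lpin1 the exception. Shares differing by 20 points or more were found in 4 members by the RSEM-format table (Adrb3, Aqp7, Cidec, Scd1) and in 5 by the kallisto-format table (Acaca, Adrb3, Plin4, Rbp4, Scd1). Only Scd1 and Adrb3 were in both lists, so the others depended on the quantifier. Plin4-202 shows this, with 100% of Plin4 TPM in each library by the RSEM-format table, but 76.2% in replicate 2 and 43.5% in replicate 1 by the kallisto-format table. It differs from Plin4-201 by 1 base in length. Cidec-202 took 58.9% of Cidec TPM in replicate 2 and 87.1% in replicate 1, but with kallisto 50.2% in replicate 2 and 51.9% in replicate 1. In Aqp7, Aqp7-202 took 34.7% in replicate 2 and 3.60% in replicate 1, and Aqp7-203 took 5.77% in replicate 2 and 39.0% in replicate 1, while kallisto put these transcripts within 5 points between libraries. The differences of Rbp4-201 (20.7% in replicate 2 and 0% in replicate 1), Acaca-205 (0% in replicate 2 and 24.2% in replicate 1) and Acaca-206 (29.9% in replicate 2 and 6.10% in replicate 1) reached 20 points with kallisto only.

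The largest difference was that of Scd1 by the RSEM-format table and that of Adrb3 by the kallisto-format table. Scd1-201, its coding transcript of 4832 bases and 6 exons, took 84.5% of Scd1 TPM in replicate 2 and 41.4% in replicate 1, against 67.2% in replicate 2 and 33.5% in replicate 1 with kallisto. Scd1-203, a transcript of 750 bases with no annotated coding sequence, took 1.33% in replicate 2 and 37.3% in replicate 1, and 17.5% in replicate 2 and 47.4% in replicate 1 by the kallisto-format table. The short transcript thus took the larger share in replicate 1 by both tables. Its level was 4.81 TPM in replicate 2 and 44.7 TPM in replicate 1 in the RSEM-format table, whereas Scd1-201 had 306 TPM in replicate 2 and 49.6 TPM in replicate 1.

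The fold of Scd1 therefore depends on the scale. Scaled counts gave 5.01-fold, the TPM ratio was 3.02, and the centred kallisto ratio was 2.95, the widest gap of any member. The effective length by which TPM divides was 4041 bases in replicate 2 and 2250 bases in replicate 1. Scd1 stayed above 2-fold on each scale. For the members as a whole, the median gap between the count fold and the kallisto ratio was 0.08 on the log2 scale.

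Adrb3 and Acaca showed further transcripts that were larger in replicate 2. Adrb3-201 took 60.5% of Adrb3 TPM in replicate 2 and 99.9% in replicate 1, with 59.5% in replicate 2 and all of it in replicate 1 by the kallisto-format table. Adrb3-203 took 25.4% in replicate 2 and 0.10% in replicate 1. Adrb3 had 1024 counts in replicate 2 but 97 in replicate 1, so the shares of replicate 1 rest on few reads. Acaca-202, a coding transcript of 9513 bases and 56 exons that starts upstream of Acaca-201 and was chosen after its values were seen, took 10.5% of Acaca TPM in replicate 2 and 2.97% in replicate 1. The kallisto-format table gave Acaca-202 12.4% in replicate 2 and 3.42% in replicate 1. Its estimated count was 2085 in replicate 2 and 202 in replicate 1, beside 7889 in replicate 2 and 2974 in replicate 1 for Acaca-201.

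**Figure D4:**
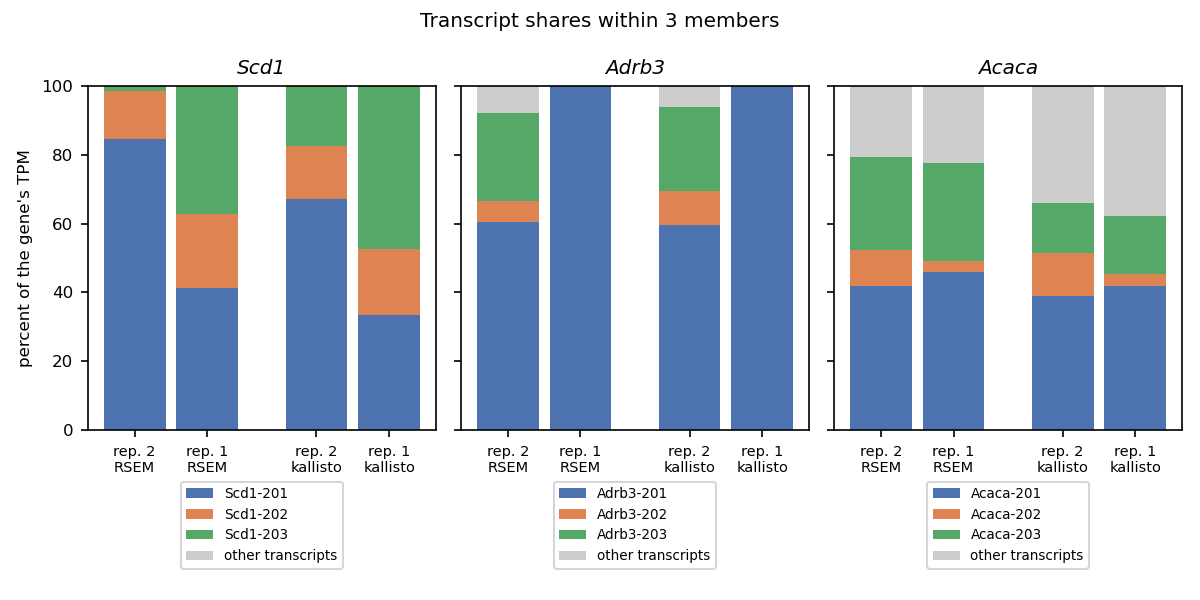
Percent of the gene's TPM taken by each of 3 transcripts and by all others (grey) in Scd1, Adrb3 and Acaca, in replicate 2 and replicate 1, by the RSEM-format and kallisto-format tables, 1 library per bar. In Scd1 the green part, Scd1-203, is larger in replicate 1 in both tables.

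Of 89 further genes of the same pathways, listed with earlier results of these data known, 85 passed the filter on low counts. Among them 16 passed 2-fold in replicate 2 and 0 were at least 2-fold lower, and the median log2 ratio was 0.24. All genes had 5.18% at least 2-fold higher and 4.2% at least 2-fold lower, and protein-coding genes had 4.7% and 1.46%. As a share, the 16 genes are 18.8% of those that passed the filter. Pparg, the master regulator of fat cell differentiation, was among the 16, at 18.3 TPM in replicate 2 and 2.84 TPM in replicate 1, or 6.54-fold. Lipe, the hormone-sensitive lipase, which also frees cholesterol in steroid-producing cells, had 108 TPM in replicate 2 and 36.3 TPM in replicate 1, or 2.53-fold. Abhd5, the coactivator of Pnpla2, had 26.9 TPM in each library, or 1.24-fold by counts.

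Of 13 transcription factors of fat formation and lipogenesis, 2 (15.4%) were at least 2-fold higher, Pparg and Ebf2, the second chosen for mention after its value was seen (8.82-fold, 2.81 TPM in replicate 2 and 0.33 TPM in replicate 1). Srebf1, which drives lipogenic genes after feeding, had 137 TPM in replicate 2 and 86.9 TPM in replicate 1, or 1.56-fold. Mlxipl, which encodes the carbohydrate-responsive factor ChREBP, had 15.9 TPM in replicate 2 and 7.07 TPM in replicate 1, or 1.96-fold. Cebpb had 40.4 TPM in replicate 2 and 54.5 TPM in replicate 1, and Nr1h2, a liver X receptor, 49.9 TPM in replicate 2 and 41.9 TPM in replicate 1. Cebpa, at 7.91-fold, was thus further from equality than its relative Cebpb, at 0.685 times.

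Fatty acid synthesis partners were the group nearest to equality, with 1 of 18 (5.56%) at least 2-fold higher, near the 5.18% of all genes, and a median log2 ratio of 0.01. Scd2, a related desaturase made in brain and other tissues, had 455 TPM in replicate 2 and 510 TPM in replicate 1, or 0.825 times, beside 5.01-fold for Scd1. Idh1, which gives NADPH, had 270 TPM in replicate 2 and 227 TPM in replicate 1. Elovl5, a polyunsaturated fatty acid elongase, had 183 TPM in replicate 2 and 209.9 TPM in replicate 1, or 0.760 times, beside 0.682 times for Elovl6.

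Among droplet proteins and lipase partners, 4 of 13 (30.8%) were at least 2-fold higher. Plin2, the coat protein of most cell types, had 131 TPM in replicate 2 and 115 TPM in replicate 1, or 1.08-fold beside 3.37-fold for Plin1. Cavin1 and Cav1 form caveolae, which adipocytes hold in great number. Cavin1 had 135 TPM in replicate 2 and 98.6 TPM in replicate 1. Cav1, chosen after its value was seen, had 114 TPM in replicate 2 and 19.95 TPM in replicate 1, or 5.93-fold.

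In fatty acid uptake, 1 of 12 partners (8.33%) was at least 2-fold higher, and the abundant acyl-CoA synthetase Acsl4 had 109 TPM in replicate 2 and 124 TPM in replicate 1, or 0.810 times, beside 3.77-fold for Acsl1. Slc27a1, a fatty acid transport protein, had 57.7 TPM in replicate 2 and 33.6 TPM in replicate 1. Got2, an aminotransferase also named as a fatty acid binder, had 53.9 TPM in replicate 2 and 56.6 TPM in replicate 1. Glycerolipid enzymes had 5 of 15 (33.3%) at least 2-fold higher. Their abundant members were near equality, with Agpat3 at 85.7 TPM in replicate 2 and 81.7 TPM in replicate 1, Gpam, the first acyltransferase of the pathway, at 38.5 TPM in replicate 2 and 38.1 TPM in replicate 1, and Agpat4 at 39.2 TPM in replicate 2 and 34.6 TPM in replicate 1. Among the 5 that passed 2-fold, Mogat1, Mogat2 and Aqp9 were under 1 TPM in both libraries. They were chosen for mention after their values were seen, and they had 2, 10 and 5 counts in replicate 1. Gpd2 and Gk, also among the 5 and chosen after their values were seen, had more counts. Gpd2 was 2.95-fold higher, with 2221 counts in replicate 2 and 647 in replicate 1. Gk was 2.12-fold higher, with 435 counts in replicate 2 and 176 in replicate 1.

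Hormone signalling genes had 3 of 14 (21.4%) at least 2-fold higher. Of these 3, Hcar2 and Adrb1, chosen after their values were seen, had few counts in replicate 1, at 3 and 18. Pde3b, also among the 3 and chosen after its value was seen, was 4.33-fold higher, with 1613 counts in replicate 2 and 320 in replicate 1. Npr1, the receptor by which natriuretic peptides act, had 147 TPM in replicate 2 and 151 TPM in replicate 1, or 0.922 times, while the clearance receptor Npr3 was 4.21-fold higher. Akt2 had 94.0 TPM in replicate 2 and 70.2 TPM in replicate 1. Insr, the insulin receptor, had 52.1 TPM in replicate 2 and 65.0 TPM in replicate 1.

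**Figure D5:**
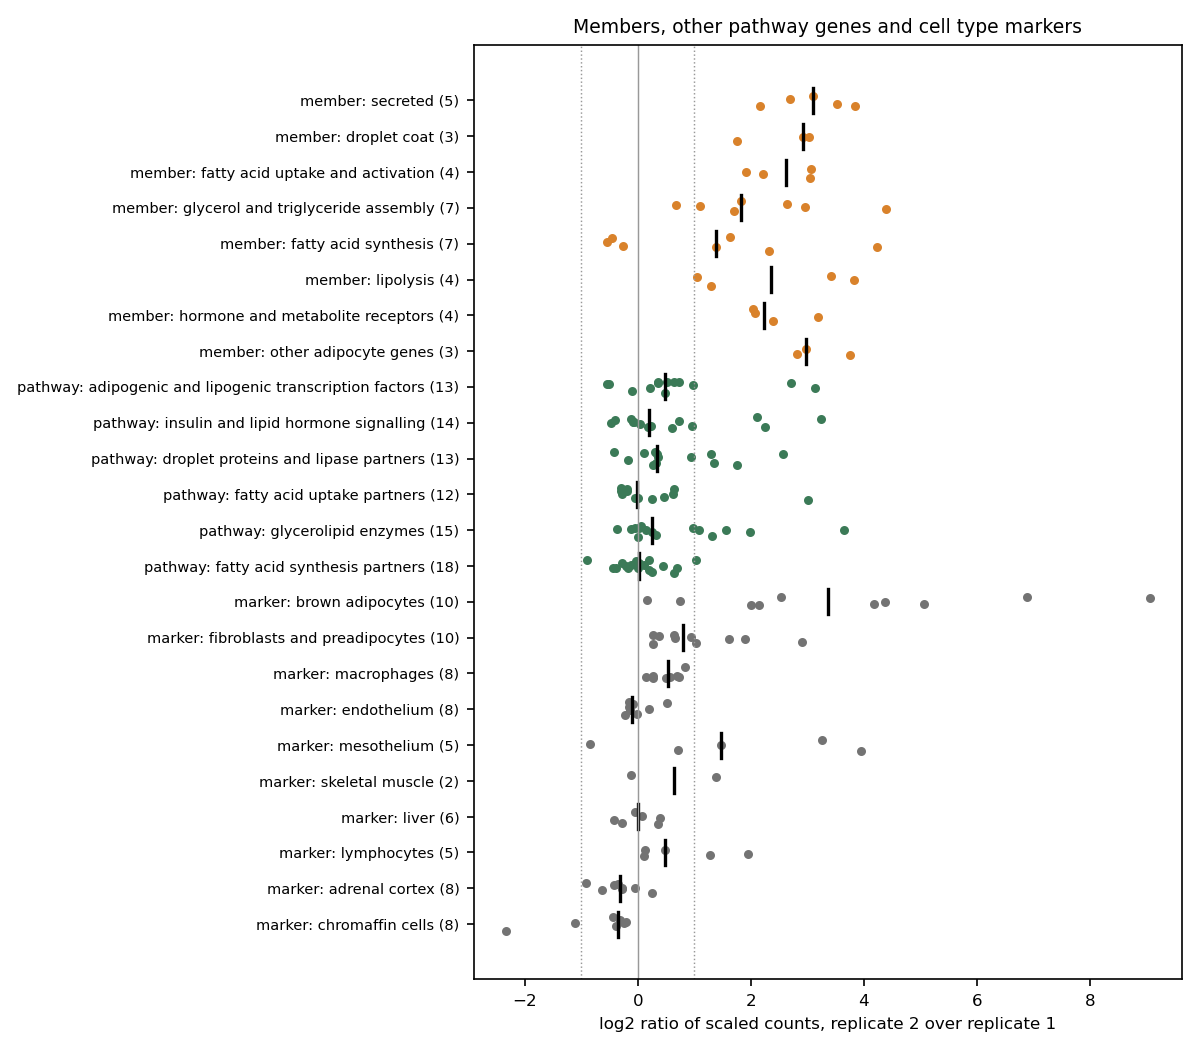
Log2 ratio of scaled counts, replicate 2 over replicate 1, for each measured gene of the member roles (orange), the other pathway lists (green) and the cell type markers (grey), with black bars at list medians, dotted lines at 2-fold either way and the number measured in brackets. Member roles have medians of 1.39 or more, and pathway lists have medians of 0.47 or less.

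Markers of other cells moved with the members in part, and their part in the differences was not tested. Brown adipocyte markers had 8 of 10 measured genes at least 2-fold higher, and the 11 listed summed to 325 TPM in replicate 2 and 43.5 TPM in replicate 1. Ucp1, the uncoupling protein that defines brown fat, had 80.6 TPM in replicate 2 and 0.14 TPM in replicate 1 (3727 counts in replicate 2 and 6 in replicate 1). Cox8b and Cox7a1, subunits of respiratory complex IV rich in brown fat, had 102 and 48.6 TPM in replicate 2 and 16.2 and 10.1 TPM in replicate 1. Among the 10 measured, the folds ran from 1.12 to 534 (Ucp1), with a median of 10.3. Zic1, a marker of classical brown fat, was chosen after its value was seen. It had 1 count in replicate 2 and 0 in replicate 1, below the filter on low counts, so it was not among the 10 measured. In replicate 1, where Ucp1 had 6 counts, Adipoq still had 494 counts and Lep 890. Many members are made by brown as well as white adipocytes.

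Fibroblast and preadipocyte markers had 4 of 10 at least 2-fold higher and summed to 304 TPM in replicate 2 and 162 TPM in replicate 1. Dcn, a matrix proteoglycan, had 124 TPM in replicate 2 and 73.3 TPM in replicate 1, and the collagen genes Col1a2 and Col3a1 had 34.6 and 36.3 TPM in replicate 2 and 21.4 and 13.01 TPM in replicate 1. Dpt, chosen after its value was seen, was the furthest from equality of that list at 7.45-fold. Macrophage markers had 0 of 8 at least 2-fold higher and summed to 337 TPM in replicate 2 and 209 TPM in replicate 1, with Lyz2 at 175 TPM in replicate 2 and 98.0 TPM in replicate 1. The complement genes C1qa and C1qb had 35.9 and 37.6 TPM in replicate 2 and 27.4 and 31.7 TPM in replicate 1. Endothelial markers had 0 of 8 and summed to 371 TPM in replicate 2 and 365 TPM in replicate 1, led by Plvap, Egfl7 and Emcn at 89.7, 81.0 and 57.3 TPM in replicate 2 and at 92.8, 79.9 and 57.5 TPM in replicate 1. Fabp4 and Cd36 are also made by macrophages and capillary cells. By scaled counts, Fabp4 and Cd36 had folds of 8.23 and 4.65, and all 16 markers of those cells had folds of 0.857 to 1.79. By TPM, Fabp4 and Cd36 had ratios of 9.22 and 5.27. The macrophage markers Adgre1, Cd68 and Csf1r, chosen after their values were seen, then had ratios of 2.46, 2.09 and 2.02. The next highest TPM ratio of those markers was 1.78, that of Lyz2. The source of Fabp4 and Cd36 was not tested.

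Markers of other tissues were low. Mesothelial markers had 3 of 5 at least 2-fold higher and summed to 6.60 TPM in replicate 2 and 2.93 TPM in replicate 1. Liver markers had 0 of 6 and summed to 14.1 TPM in replicate 2 and 12.6 TPM in replicate 1. Skeletal muscle markers, of which 2 of 6 were measured, had 1 of these 2 at least 2-fold higher, Acta1 at 2.62-fold. They summed to 4.39 TPM in replicate 2 and 2.68 TPM in replicate 1, and Ckm and Myh4 were at 0 in both. Lymphocyte markers had 2 of 5 at least 2-fold higher and summed to 2.72 TPM in replicate 2 and 1.37 TPM in replicate 1. Muscle or liver also make Car3, Pck1 and Ces1d. The highest marker of those tissues was Alb, at 8.40 TPM in replicate 2 and 7.38 TPM in replicate 1. It was below all 3 members in replicate 2 and above Pck1 and Ces1d in replicate 1. No kidney markers were listed, and the source of these 3 members was not tested.

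Gland cell markers lay the other way. Cortex markers had 0 of 8 at least 2-fold apart and a median log2 ratio of -0.32, and Star, Hsd3b1 and Cyp11a1 led them at 4897, 5325 and 3192 TPM in replicate 2 and at 6855, 5140 and 3992 TPM in replicate 1. Chromaffin cell markers had 2 of 8 at least 2-fold lower, Th at 0.459 and Pnmt, chosen after its value was seen, at 0.198 times, and their median log2 ratio was -0.35. Chga and Chgb, granule proteins, had 1004 and 671 TPM in replicate 2 and 1205 and 775 TPM in replicate 1. Acly and Me1, at log2 ratios of -0.46 and -0.26, lay within the range of the cortex markers, which ran from -0.92 to 0.25. That range also holds the median of all genes, 0.01, so it does not set these 2 genes apart. Their source was not tested.

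Assignment of reads to the members was close to unique. For 31 members the deposited posterior SD of the count was 0, and for the other 6 it was at most 0.673% of the count. A gene on the opposite strand overlaps 13 members and a gene on the same strand overlaps 8, by GENCODE M21. Whether counting used strand is not given in the sources used here. Among the overlapping coding genes are Hdgfl2 beside Plin4 and Egfl7 beside Agpat2, and Egfl7 had 81.0 TPM in replicate 2 and 79.9 TPM in replicate 1.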

How the data were processed

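The members and the other gene lists were chosen with earlier results of these data known. Per the file headers, the gene tables give expected counts, left unnormalized by the authors, and deposited TPM over all entries, under the column names RSEM writes, with the posterior SD of the count. The deposited transcript tables give each transcript's TPM as a percent of its gene, and a further deposited table gives kallisto-format TPM and estimated counts. Deposited posterior mean counts, treated as a score, served 1 alternative. The text deposited with the tables names mm10 and GENCODE M21, and each library was quantified alone. Aligner, versions and strand setting: not given in the sources used here.

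Names came from GENCODE M21 by identifier. Rounded expected counts were scaled with TMM factors (edgeR 4.0.16, R 4.3.3), with DESeq2 1.42.0 size factors as an alternative. The fold is replicate 2 over replicate 1 with an exact conditional binomial 95% interval, for nuclear genes with a mean scaled count of at least 10. A count of 0 on 1 side was set to 3 counts. The procedure was tested on simulated data. No p-value was computed, since each side is a single animal. Intervals cover counting error only. Named genes are all members, the 3 most abundant of each pathway and marker list, key regulators fixed by name, and transcripts whose share differed by 20 points. The mesothelium, liver, muscle and lymphocyte markers, low in both libraries, are given mainly as sums. Other names are marked as chosen after their values were seen. Alternatives changed the scaling, quantifier, filter, fold threshold and classes. Sequences are from RefSeq. The 26345 unannotated or spike-in entries were left out of library sizes.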

Additional observations from a re-analysis of the deposited data

How the results depend on the processing

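The number of members at least 2-fold higher in replicate 2 was 33 under TMM, DESeq2 size factors, total counts, spike-in counts, kallisto ratios, posterior mean counts, both other count filters and ratios of CPM + 1. It was 34 at 1.5-fold and 24 at 4-fold, against 11.4% and 1.58% of all genes. The share of all genes at least 2-fold higher ran from 1.93% to 5.82% over those settings, and their median log2 ratio was 0.08 with spike-in scaling and -0.22 with no filter. With no filter, counts below 3 were set to 3, so genes with 0 counts in both libraries had -0.22 from the scaling alone. The shared members' median log2 ratio, 1.79 as reported, was 1.86 with spike-in counts and 1.65 with kallisto ratios. Spike-in scaling shifts all genes alike, and the fat-restricted median was then 3.17, beside 3.10 as reported. The median of all members was 2.26 with ratios of CPM + 1, where the added 1 draws ratios toward equality. The cause of the kallisto difference was not tested. Leaving out each replicate in turn, the median TPM of the members ranged from 16.1 to 83.9 and their share of coding TPM from 0.612% to 1.4996%. Those 2 ranges are simply the 2 libraries. The count of 16 pathway genes ranged up to 20 with spike-in scaling. Kallisto kept all 37 members on their side of 2-fold. No paired analysis was possible because the labels name 1 group of 2 animals. Low counts limit Hcar1, Retn, Aqp7, Rbp4, Pnpla3, Adrb3 and Tshr most, each with under 100 counts in replicate 1.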
